A study of Mus musculus with 16 samples.

Results

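The kidney cortex is mostly tubule, and the glomeruli that filter the blood make up a small part of it. RNA sequencing libraries of isolated glomeruli were compared with libraries of whole renal cortex, both from control mice. The members are 8 of the 16 libraries of the series: 4 of control glomeruli and 4 of control cortex, chosen by their labels alone. All 8 come from wild-type mice of 24 weeks without diabetes. The other 8 come from diabetic mice (HFD/STZ: fed a high-fat diet and given the beta cell toxin streptozotocin) and enter 1 alternative fit alone. All libraries carry the label batch 1. The labels say neither how the glomeruli were isolated nor whether each library is an animal of its own. The p-values therefore reflect the scatter among these samples alone, part of which may be technical.

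A glomerulus is a tuft of capillaries. Podocytes wrap the capillaries and join to each other through the slit diaphragm, mesangial cells hold the loops together, and fenestrated endothelial cells line them. Parietal cells line Bowman's capsule around the tuft, and renin cells and smooth muscle sit in the arteriole that feeds it. The filtrate then passes the proximal tubule, which takes back glucose, amino acids and phosphate and secretes organic ions, the thick limb of Henle's loop, the distal convoluted tubule and the collecting duct. Cortex contains all of these parts, its own glomeruli included.

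The authors counted each tissue in a table of its own, on different gene annotations, and the tables were joined by gene symbol at 19061 genes. Tissue and counting table therefore cannot be told apart: a gene can differ between them because it was counted differently. The implied gene length (the count divided by the FPKM, which is a count per length and library size) lay within 1.2 times of the other table for 4998 of 14236 genes. Values per gene are CPM, counts per 1000000 on library sizes scaled with the TMM method. A log2 difference is glomeruli minus cortex ± SE, so a value of 1 is a doubling, and a gene was called at an edgeR adjusted p under 0.05.

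Total counts were 40001932 to 41876031 in the glomerular libraries and 57473100 to 69947387 in the cortex libraries. Glomerular libraries 3 and 4 differed by a chi-square of 2.84 per gene against 50.6 to 94.1 for the other glomerular pairs, so their counts were summed as 1 sample (3+4), which left n = 3 against n = 4. Values are listed in the order 1, 2, 3+4 for glomeruli and 1 to 4 for cortex. Some libraries stood apart within their group. Glomerular sample 2 lay at least 2-fold above both others at 57 genes and below both at 34 of the 9060 genes with a mean of at least 10 CPM. Cortex library 4 lay as far above its group at 52 genes and below it at 30 of 9395, had a chi-square per gene of 98.1 to 124 against the rest of its group (at most 32.9 among the rest), and held more thick limb and less convoluted proximal tubule signal. Cortex library 3 held adipocyte markers. Results that rest on these libraries are given without them too.

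Of the 15692 genes tested, 6009 (38.3%) were called higher in glomeruli and 6192 (39.5%) lower, together 77.8%. The median log2 difference of all tested genes was -0.02. With so large a background of calls, a gene list stands out by the size of its differences more than by its count. At least 4-fold, 1925 genes were higher and 3261 lower. At least 64-fold, 204 were higher and 1092 lower, so the extreme differences lay more often on the cortex side. The groups did not overlap at 12191 genes (77.7%). On the log2(FPKM + 1) scale, which divides by each table's own gene lengths, 8220 genes were higher and 4292 lower, so 65.7% of the calls were higher against 49.3% in the counts. With library totals in place of TMM the counts were 6739 and 5560 (54.8%), and the median of all genes stood at 0.16. Leaving out genes whose implied lengths differed left 4951 genes, of which 1847 were higher and 1875 lower.

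The plot of log2 differences by gene list shows the direction of each group of genes before they are taken in turn.

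**Figure D1:**
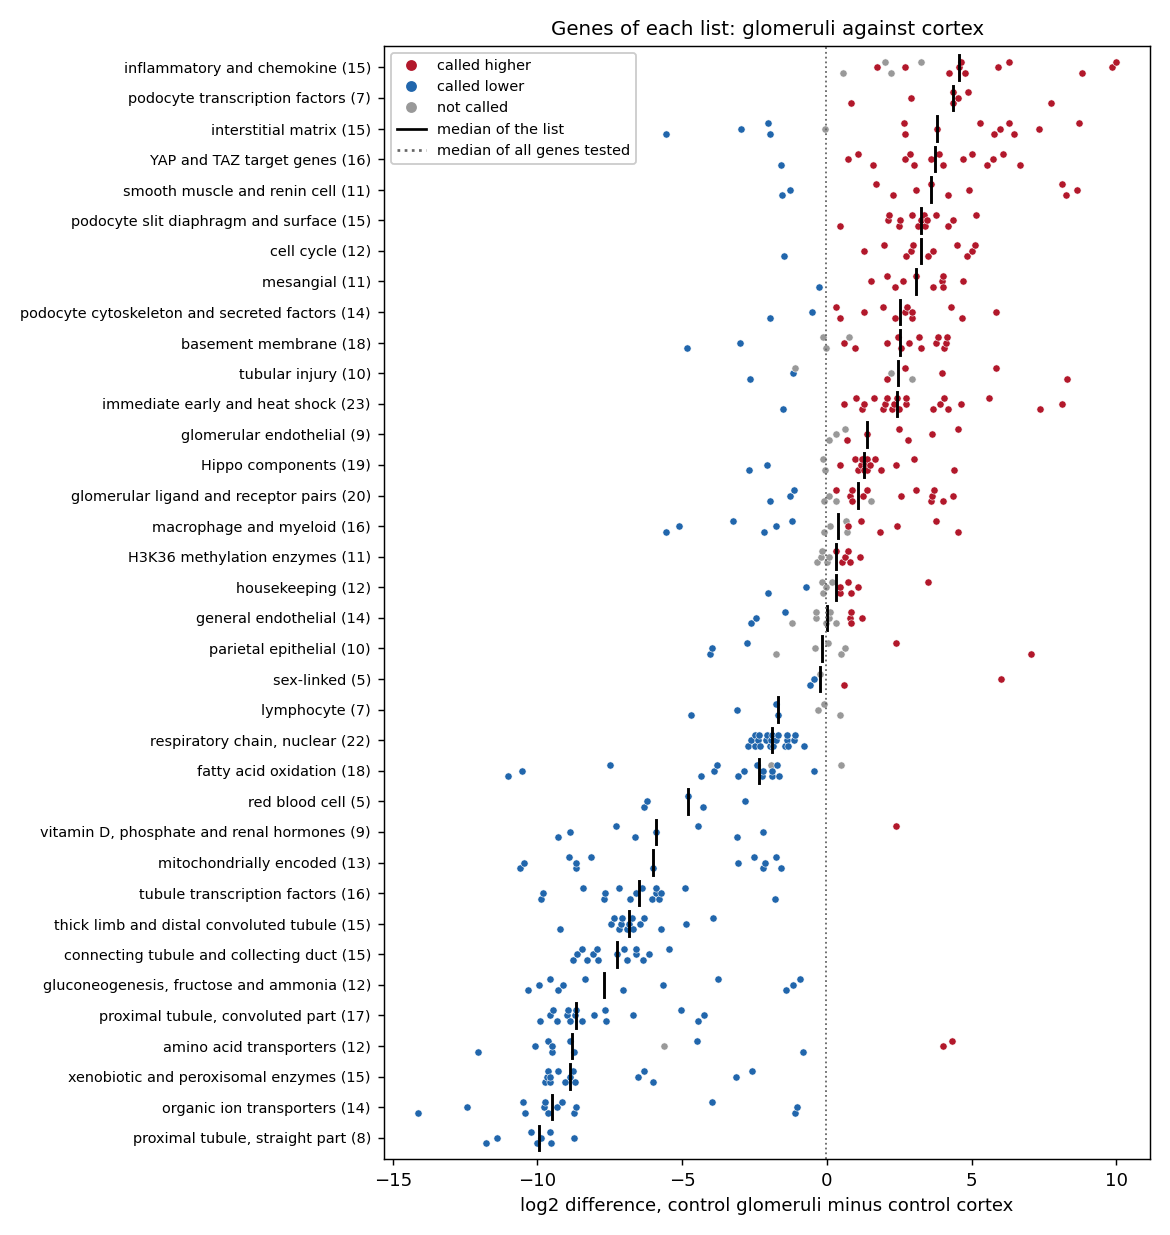
Log2 difference (control glomeruli minus control cortex, x axis) of every tested gene, by gene list (y axis, number of tested genes in parentheses), with lists ordered by their median (black bar); red points were called higher, blue points lower and grey points neither, and the dotted line is the median of all genes tested. Lists of podocyte, mesangial and matrix genes lie on the right, and the proximal tubule and transporter lists lie below -8 in median.

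Stretches just upstream of a few genes are shown first, as examples. The transcripts of these genes lay far apart between the tissues, and each stretch holds a motif described below. HNF1 and HNF4A are transcription factors of tubule and liver, TEAD factors are the DNA-binding partners of YAP and TAZ, and the CArG box is bound by serum response factor at muscle and cytoskeleton genes. Each line is the 250 bases before the gene's start in RefSeq (GRCm38.p6), 5′ to 3′ on the strand that holds the gene, with the motif in capitals. G6pc (the last enzyme of glucose release) and Slc3a1 (a subunit of the cystine transporter) were lower in glomeruli, and Myl9 (a smooth muscle myosin light chain), Fhl2 (an actin-linked cofactor) and Ccn1 (a secreted matrix protein) were higher.
G6pc, chr11:101367466-101367715 on the plus strand, HNF1 motif: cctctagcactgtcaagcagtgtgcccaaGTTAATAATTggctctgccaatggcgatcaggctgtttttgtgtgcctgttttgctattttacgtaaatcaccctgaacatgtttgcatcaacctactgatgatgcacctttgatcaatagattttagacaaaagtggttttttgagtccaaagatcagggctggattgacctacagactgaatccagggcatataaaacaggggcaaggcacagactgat
Slc3a1, chr17:85028097-85028346 on the plus strand, HNF4A motif: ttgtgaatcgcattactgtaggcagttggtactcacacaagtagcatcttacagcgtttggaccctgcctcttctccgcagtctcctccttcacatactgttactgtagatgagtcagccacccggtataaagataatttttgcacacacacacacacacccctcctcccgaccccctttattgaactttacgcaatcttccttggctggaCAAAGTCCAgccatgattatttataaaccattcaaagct
Myl9, chr2:156775214-156775463 on the plus strand, CArG box: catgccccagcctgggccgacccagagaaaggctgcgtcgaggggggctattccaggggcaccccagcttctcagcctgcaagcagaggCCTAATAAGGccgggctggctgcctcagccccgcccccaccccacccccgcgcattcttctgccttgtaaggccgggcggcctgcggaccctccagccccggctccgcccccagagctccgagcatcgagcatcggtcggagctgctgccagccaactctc
Fhl2, chr1:43196762-43197011 on the minus strand, CArG box: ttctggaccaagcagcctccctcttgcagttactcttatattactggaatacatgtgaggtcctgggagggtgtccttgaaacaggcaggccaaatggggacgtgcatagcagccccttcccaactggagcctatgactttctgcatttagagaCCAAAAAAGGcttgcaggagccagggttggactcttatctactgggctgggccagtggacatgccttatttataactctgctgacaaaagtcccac
Ccn1, chr3:145649986-145650235 on the minus strand, TEAD motif: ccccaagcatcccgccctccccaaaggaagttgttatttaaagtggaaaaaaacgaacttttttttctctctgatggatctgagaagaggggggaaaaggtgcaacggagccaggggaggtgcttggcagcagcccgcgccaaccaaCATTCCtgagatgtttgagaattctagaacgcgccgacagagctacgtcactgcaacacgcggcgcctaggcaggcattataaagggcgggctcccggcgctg

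The motifs were searched on both strands of such 250-base windows. The HNF1 motif (GTTAAT, any base and then ATT) stood in 9 of 230 windows (3.91%) of the 300 most lower genes, in 0 of 217 of the 300 most higher genes and in 111 of all 27025 windows (0.411%). Besides G6pc, the lower genes with it included the bile acid carrier Slc10a2, the microvillus gene Cdhr2 and the sulfotransferase gene Sult1d1. The HNF4A motif CAAAGTCCA stood in 4 windows of the lower genes (1.74%), in 1 of the higher genes (0.461%) and in 0.381% of all windows. The short TEAD motif GGAATG was frequent everywhere, at 13.9% of the lower, 16.1% of the higher and 12.6% of all windows. The CArG box stood in 1.74% of the lower, 1.84% of the higher and 1.4% of all windows. Motifs also stood at genes of the other direction than in the examples. The lower genes Acsm3 (-11.41) and Umod (-7.36) hold a CArG box and a TEAD motif, and the higher gene Gpnmb (8.46) holds the HNF4A motif. A match here is a run of letters and not a measured binding site.

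Podocyte genes were higher in glomeruli throughout 2 of their 3 lists. All 15 genes of the slit diaphragm and cell surface were called higher (median 3.26), as were all 7 podocyte transcription factors (median 4.36), against 38.3% of all tested genes. Of 14 genes of the podocyte cytoskeleton and secreted factors, 12 were higher and 2 lower (median 2.53). In bulk RNA, fewer cells of a type and less RNA per cell cannot be told apart.

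Nphs1 (chr7:30458315-30487223) encodes nephrin, the backbone of the slit diaphragm, and stood at 267, 286 and 226 CPM in glomeruli against 33.8, 36.8, 31.5 and 33.2 CPM in cortex. The groups were far apart and each was even, and the log2 difference was 2.94 ± 0.10 (adjusted p = 3.51e-08), a 7.68-fold difference. Kirrel, which encodes the nephrin partner NEPH1, differed most in this list, with 546, 426 and 543 against 14.3, 11.95, 14.2 and 16.1 CPM (5.16 ± 0.14, 35.7-fold).

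Podxl, whose sialic acid-rich product keeps podocyte foot processes apart, was at 2289, 1723 and 1848 against 188, 193, 178 and 186 CPM (3.39 ± 0.12). Ptpro, a receptor phosphatase of the podocyte surface, differed by 3.26 ± 0.10. Glomerular sample 2 was the lowest for Dag1, the dystroglycan that ties podocytes to their basement membrane, with 2643, 1224 and 2285 against 148, 139.9, 149.5 and 168 CPM, and the groups did not overlap. Cd2ap, an adaptor that tubule cells also express, differed least, with 128, 116 and 147 against 91.8, 94.3, 96.3 and 95.4 CPM (0.46 ± 0.09). Kirrel2 was near the detection limit, at 0.993, 0.728 and 0.727 against 0, 0.162, 0.337 and 0.233 CPM, and its call was lost without cortex library 2 or any 1 glomerular sample (adjusted p 0.0637 to 0.105).

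The podocyte transcription factors had the highest median difference of the podocyte lists, though single genes of the other lists, such as Nes and Kirrel, differed more than most of them. Wt1 (chr2:105126529-105173616), the regulator that keeps podocytes differentiated, stood at 240.2, 175 and 194 against 9.92, 9.52, 8.98 and 11.1 CPM (4.36 ± 0.13, adjusted p = 1.64e-08). Lmx1b, whose loss causes nail-patella syndrome, stood at 84.5, 67.6 and 80.9 against 2.62, 2.597, 2.75 and 2.62 CPM (4.87 ± 0.11). Foxd1 stood out among them. It marks the stromal lineage of the embryonic kidney and is also made by podocytes, and its values were 331, 98.4 and 209 against 0.811, 1.36, 0.883 and 0.915 CPM (7.75 ± 0.45, 214-fold), lowest in glomerular sample 2. Foxc2 differed by 4.35 ± 0.14. Foxc1 differed by 4.52 ± 0.41, with cortex library 4 at 19.0 CPM against 7.77 to 8.67 in the rest of its group. Tcf21, expressed by podocytes and interstitial fibroblasts, had the smallest difference, with 31.8, 25.4 and 28.5 against 21.2, 11.2, 12.6 and 18.6 CPM (0.85 ± 0.22).

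Among cytoskeletal genes of the podocyte, Nes (nestin, an intermediate filament) stood at 1311, 1337 and 1342 against 20.7, 24.8, 21.1 and 25.6 CPM (5.85 ± 0.12). Synpo, the actin-bundling synaptopodin, stood at 1130, 809.9 and 1075 against 47.2, 51.2, 54.2 and 51.2 CPM (4.30 ± 0.14). Inf2, an actin-nucleating formin mutated in hereditary glomerulosclerosis, differed by 4.68 ± 0.17 and Sema3g, a secreted semaphorin, by 2.94 ± 0.13. Vegfa, which podocytes and tubules both make and which feeds the endothelium, differed little, with 307, 344 and 298 against 256, 261, 272 and 240.3 CPM (0.30 ± 0.09). A pair of genes ran the other way. Bmp7, a growth factor also made by the distal nephron, stood at 12.4, 12.1 and 11.5 against 54.2, 49.9, 42.8 and 40.1 CPM (-1.97 ± 0.12), and Arhgap24, a regulator of small GTPases, at 192, 140.1 and 177 against 284, 257, 227 and 206 CPM (-0.52 ± 0.15).

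Cortex libraries held the podocyte genes at a steady low level. Their mean was 10.4% of the glomerular mean in the median slit diaphragm gene (2.80% to 72.5%), and 4.86% in the median transcription factor. The summed CPM of the slit diaphragm list was 8601, 5622 and 7512 in glomeruli and 769, 779, 766 and 782 in cortex. Glomerular samples thus varied more in this sum than cortex libraries, with sample 2 the lowest.

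**Figure D2:**
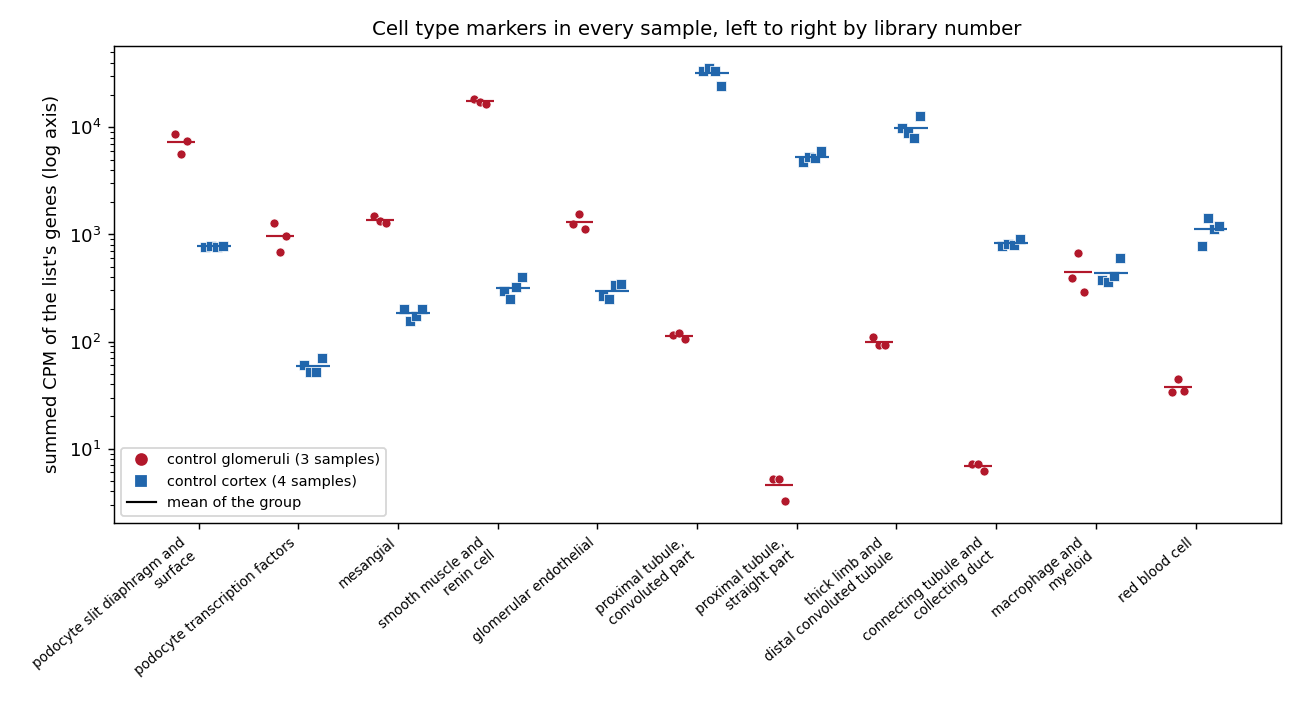
Summed CPM (y axis, log scale) of the genes of 11 cell type lists (x axis) in every sample, with glomeruli as red circles, cortex as blue squares, samples in order of their number from left to right and the group mean as a bar. Tubule sums lie at 3.24 to 120.1 CPM in glomeruli, and cortex library 4 is the lowest of its group for the convoluted proximal tubule and the highest for the thick limb.

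Mesangial genes were higher in 10 of 11 cases and lower in 1 (median 3.08). Pdgfrb, the receptor through which PDGF recruits mesangial cells, stood at 458, 314 and 445 against 53.8, 41.2, 44.04 and 52.5 CPM (3.08 ± 0.16), lowest in glomerular sample 2. Ptn, the growth factor pleiotrophin, stood at 87.6, 55.6 and 60.9 against 2.32, 2.31, 3.69 and 2.17 CPM (4.69 ± 0.24), and Serpine2, a protease inhibitor, at 193, 225 and 187 against 13.5, 9.902, 9.89 and 17.8 CPM (3.98 ± 0.22). All groups of these genes were apart. Fhl2 differed by 3.66 ± 0.12, Des (desmin) by 4.01 ± 0.24 and Itga8, the integrin that binds nephronectin, by 2.64 ± 0.28. Agtr1a, the angiotensin II receptor, was the exception, with 41.8, 42.2 and 39.3 against 59.7, 49.4, 44.2 and 46.8 CPM (-0.28 ± 0.11, adjusted p = 0.0416). Its call was lost with library totals (-0.10, adjusted p = 0.412) and its direction turned on the log2(FPKM + 1) scale (0.26), so mesangial genes called lower numbered 1 in the counts and 0 in both of these fits. The call was also lost without any 1 glomerular sample or cortex library 1 or 2 (adjusted p 0.0645 to 0.135).

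Contractile smooth muscle genes reached far higher levels in the glomerular samples than in cortex, and renin ran the other way. Of 11 genes, 9 were higher and 2 lower (median 3.59). Acta2, smooth muscle actin, stood at 8696, 8923 and 7979 against 29, 22.99, 30.8 and 40.2 CPM (8.12 ± 0.23, 278-fold). Tagln, the actin-binding transgelin, stood at 7502, 5667 and 6301 against 20.4, 19.5, 19.6 and 24.4 CPM (8.27 ± 0.18), and Cnn1, calponin, at 378, 473 and 348 against 0.471, 0.325, 1.85 and 1.18 CPM (8.66 ± 0.50). The 3 glomerular samples were alike in these genes. Myh11, the myosin heavy chain of mature smooth muscle, differed less, with 202, 285 and 278 against 17.01, 16.7, 22.8 and 28.1 CPM (3.59 ± 0.22), and Lmod1 and Myl9 differed by 4.93 ± 0.20 and 4.20 ± 0.17. Ren1, which encodes renin, the enzyme that starts the angiotensin cascade, stood at 17.4, 19.7 and 15.9 against 41.3, 38.6, 63.1 and 64.5 CPM (-1.55 ± 0.21). Akr1b7, an aldo-keto reductase of renin cells, also was lower, at 0.875, 1.07 and 0.817 against 1.904, 1.85, 3.13 and 2.06 CPM (-1.28 ± 0.30).

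Of 9 endothelial genes that mark glomerular capillaries, 6 were higher and 0 lower, against 38.3% and 39.5% of all tested genes. Their median was 1.40, and 1.91 on the log2(FPKM + 1) scale. Among genes of like implied length 1 of them was called higher, and the median was 0.36. Ehd3, a membrane-trafficking gene of the glomerular endothelium, stood at 233, 267 and 206 against 31.3, 28.8, 33.8 and 39.98 CPM (2.81 ± 0.14). Plat, tissue plasminogen activator, stood at 622, 801 and 578 against 34.9, 45.7, 78.9 and 56.5 CPM (3.63 ± 0.27), and Gata5, a transcription factor of these cells, at 9.72, 12.4 and 8.29 against 0.358, 0.548, 0.401 and 0.419 CPM (4.55 ± 0.24). Glomerular sample 2 was the highest in all 3 genes. Kdr, the main VEGF receptor, stood at 154, 182 and 131 against 62.4, 50.6, 65.8 and 56.9 CPM (1.40 ± 0.13). Sox17 and Tek, the angiopoietin receptor, were not called (0.62 ± 0.31 and 0.31 ± 0.16), but both were without cortex library 4, at 0.95 (adjusted p = 0.00558) and 0.44 (adjusted p = 0.0145).

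General endothelial genes showed no common direction, with 4 of 14 higher and 3 lower, against 38.3% and 39.5% of all tested genes. Their median was 0.01 (0.18 with library totals, -0.01 with DESeq2). By log2(FPKM + 1), 8 were higher and 1 lower. Cdh5, the VE-cadherin of endothelial junctions, stood at 58.8, 95.3 and 58.04 against 28.6, 21.9, 32.1 and 37.5 CPM (1.23 ± 0.22), and Eng, a TGF-beta coreceptor, at 215, 280 and 199 against 133, 119, 141 and 139 CPM (0.80 ± 0.13). Pecam1, found on all endothelium, was not called (0.33 ± 0.19, adjusted p = 0.141). Plvap builds the diaphragms of fenestrae in peritubular capillaries, which the glomerulus largely lacks, and stood at 19.7, 28.9 and 18.6 against 114, 91.1, 120.3 and 160.1 CPM (-2.44 ± 0.23). Lpl and Fabp4, both of fat uptake, were also called lower (-1.43 ± 0.26 and -2.62 ± 0.59), but turned to 0.26 and 0.38 on the log2(FPKM + 1) scale. Without cortex library 3, the library with adipocyte markers, the Fabp4 difference was -1.79 (adjusted p = 3.12e-05). Without glomerular sample 2, general endothelial genes called lower were 5 in place of 3.

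Parietal epithelial genes were higher in 2 of 10 cases and lower in 3, against 38.3% and 39.5% of all tested genes. Their median was -0.18 (0.66 on the log2(FPKM + 1) scale). Among genes of like implied length the median was -2.96, with 1 called higher. Ncam1, an adhesion molecule, stood at 205, 247 and 235 against 1.45, 1.93, 1.75 and 1.81 CPM (7.04 ± 0.13), and Cldn1, the claudin of Bowman's capsule, at 89.9, 114 and 92.8 against 20.7, 19.3, 17.1 and 17.9 CPM (2.40 ± 0.11). Genes shared with tubule ran lower. Pax2, a kidney lineage factor, stood at 2.32, 7.55 and 1.96 against 26.5, 20.3, 31.7 and 27.6 CPM (-2.77 ± 0.47), and the simple epithelial keratin Krt8 at 1.99, 16.4 and 2.21 against 110, 108, 119 and 109 CPM (-4.04 ± 0.74). Glomerular sample 2 held several times more of both than the other samples, and without it Pax2 differed by -3.62 (adjusted p = 3.82e-06) and Krt8 by -5.702 (adjusted p = 4.61e-08).

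Tubule genes were lower in glomeruli in all 55 cases of the 4 nephron segment lists, against 39.5% of all tested genes. The medians were -8.67 for the convoluted proximal tubule (17 genes), -9.95 for its straight part (8), -6.85 for the thick limb and distal convoluted tubule (15) and -7.25 for the connecting tubule and collecting duct (15). Glomerular libraries held the median gene of these lists at 0.245%, 0.101%, 0.870% and 0.645% of its cortex level. The lowest medians were those of the proximal tubule. Adding up each list's genes, the convoluted proximal tubule reached 116, 120.1 and 106 CPM in glomeruli and 33750, 36080, 33760 and 24070 CPM in cortex.

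Lrp2 (chr2:69424340-69586065) encodes megalin, the receptor with which the proximal tubule takes back filtered protein, and stood at 4.87, 5.94 and 4.598 against 2192, 2405, 2174 and 1826 CPM (-8.71 ± 0.20, adjusted p = 5.12e-09). Cubn, its partner cubilin, stood at 2.65, 6.07 and 6.32 against 512, 539, 532 and 544 CPM (-6.71 ± 0.32). Kap, the androgen-regulated kidney protein of the male mouse, was the most abundant nuclear-encoded gene of cortex per length (18350 ± 2099 FPKM) and stood at 30.9, 37.2 and 26.5 against 16080, 17780, 16500 and 12260 CPM (-8.96 ± 0.26). Slc34a1, the main phosphate transporter, stood at 14.8, 16.1 and 14.3 against 6815, 7106, 6895 and 3823 CPM (-8.67 ± 0.32). Cortex library 4 was the lowest of its group for each of these except Cubn, and even there it was far above every glomerular sample. Slc5a2 (SGLT2) and Slc2a2 (GLUT2), the entry and exit of glucose in the convoluted part, differed by -8.45 ± 0.32 and -9.56 ± 0.28, and Slc6a19, the neutral amino acid transporter, by -9.47 ± 0.24.

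In the straight part, Slc22a7, an organic anion transporter, stood at 0.166, 0.0227 and 0.0227 against 162, 201, 242 and 234 CPM (-11.76 ± 0.40). Acsm3, a medium-chain acyl-CoA synthetase, stood at 0.544, 0.614 and 0.318 against 1098, 1423, 1454 and 1120 CPM (-11.41 ± 0.30), and Slc7a13, a cystine and aspartate transporter of the straight part, at 1.51, 1.205 and 0.522 against 1088, 1239, 1264 and 1295 CPM (-10.22 ± 0.39). Slc16a9 and Slc5a8, both carriers of small carboxylates, differed by -9.88 ± 0.18 and -9.56 ± 0.17, and Slc5a1 (SGLT1) by -8.72 ± 0.28. Each of these genes had under 2 CPM in every glomerular sample, and Slc22a7 differed by -13.03 (adjusted p = 1.97e-07) without glomerular sample 1.

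Umod (chr7:119462711-119479282), the uromodulin that the thick limb secretes into urine, stood at 25.8, 18.9 and 21.6 against 3555, 2963, 2684 and 5330 CPM (-7.36 ± 0.34). Slc12a1, the salt transporter NKCC2 blocked by loop diuretics, stood at 10.6, 4.98 and 8.29 against 966, 770.2, 691 and 2204 CPM (-7.18 ± 0.59). Cortex library 4 held the most of both, more than the other 3 libraries by a clear gap, and without it they differed by -7.12 (adjusted p = 6.86e-08) and -6.67 (adjusted p = 1.17e-06). Slc12a3, the thiazide-sensitive transporter of the distal convoluted tubule, stood at 17.1, 15.1 and 15.2 against 1902, 1794, 1677 and 1340 CPM (-6.73 ± 0.18), with cortex library 4 the lowest of its group. The chloride channel subunit Bsnd differed by -7.07 ± 0.19, and Cldn10, a claudin of the thick limb, by -9.23 ± 0.21.

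Aqp2, the vasopressin-regulated water channel of the collecting duct, stood at 1.51, 1.18 and 1.48 against 108, 104, 126 and 199 CPM (-6.58 ± 0.31), highest in cortex library 4. Aqp3, its partner on the basal side, stood at 0.686, 0.682 and 0.704 against 93.3, 90.7, 81.7 and 91.6 CPM (-7.01 ± 0.11). Foxi1, the master factor of intercalated cells, stood at 0.0946, 0.0682 and 0.0908 against 34.8, 45.3, 41.7 and 32.2 CPM (-8.77 ± 0.23). Hsd11b2, which shields the mineralocorticoid receptor from glucocorticoids, and Scnn1b, a subunit of the sodium channel ENaC, differed by -6.34 ± 0.18 and -7.25 ± 0.18. In every gene of this paragraph the glomerular samples lay under 3 CPM.

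Transcription factors of tubule cells followed the segments, with 16 of 16 lower (median -6.49). Hnf4a, the master factor of the proximal tubule, stood at 1.14, 0.932 and 0.806 against 941, 937, 875 and 769 CPM (-9.87 ± 0.19, adjusted p = 3.26e-09). Each group was near even. Tfap2b, a factor of the distal nephron, differed by -7.70 ± 0.20 and Ppara, the fatty acid sensor, by -5.73 ± 0.15.

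Glucose, fructose and ammonia metabolism was lower in 12 of 12 genes (median -7.70). Pck1, which commits carbon to glucose synthesis, stood at 4.21, 4.21 and 3.97 against 2421, 2161, 3024 and 1640 CPM (-9.13 ± 0.29), and G6pc at 0.378, 1.02 and 0.5904 against 646, 575, 911 and 478 CPM (-9.95 ± 0.42). Cortex library 3 was the highest for Pck1 and G6pc, and library 4 the lowest. The ketohexokinase Khk, the gamma-glutamyl transferase Ggt1 and pyruvate carboxylase, Pcx, differed by -7.06 ± 0.14, -8.34 ± 0.21 and -5.66 ± 0.17. Glud1, the glutamate dehydrogenase that most cells use, lay closer, at -1.17 ± 0.11.

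Genes of fatty acid oxidation were lower in 16 of 18 cases and higher in 0, with a smaller median of -2.34. The log2(FPKM + 1) scale gave 14 lower and 2 higher. Acadm, the medium-chain dehydrogenase, stood at 50.1, 44.6 and 53.9 against 934, 998, 1006 and 1074 CPM (-4.34 ± 0.12), and Ehhadh, the peroxisomal bifunctional enzyme, at 7.09, 4.37 and 5.65 against 918, 1091, 1020 and 1064 CPM (-7.49 ± 0.21). Cpt2, of the mitochondrial entry of fatty acids, differed by -3.08 ± 0.09. Cyp4a10, a fatty acid hydroxylase whose close copies share reads, so that its value is uncertain, differed by -11.00 ± 0.38. The other two were not called. Hadha, of the trifunctional protein, stood at 64.3, 139 and 58.9 against 32.1, 34.2, 138 and 46.8 CPM, with glomerular sample 2 and cortex library 3 high, and Pdk4, the brake on pyruvate oxidation, at 34.02, 43.5 and 26.7 against 22.8, 50.9, 113 and 342 CPM, with cortex library 4 high. Pdk4 was called lower without cortex library 1, at -2.29 (adjusted p = 0.0127), or library 2, at -2.21 (adjusted p = 0.0389), and stood at -0.85 (adjusted p = 0.173) without library 4. Without cortex library 3 Hadha was called higher, at 1.197 (adjusted p = 0.0136), while Hadhb, its partner subunit, differed by -1.64 ± 0.11.

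Nuclear genes of the respiratory chain were lower in 22 of 22 cases with a narrow spread and a median of -1.91. Uqcrfs1, the iron-sulfur protein of complex III, stood at 71.6, 59.6 and 60.3 against 399, 425, 399 and 348 CPM (-2.62 ± 0.11). Sdhb of complex II, Uqcrc2 of complex III and Ndufv1 of complex I differed by -2.49 ± 0.10, -2.37 ± 0.09 and -2.05 ± 0.08. Of these genes, 15 were called lower and 4 higher on the log2(FPKM + 1) scale (median -0.95).

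Mitochondrially encoded genes made up 2.38% to 3.00% of the joined counts in glomeruli and 13.3% to 14.6% in cortex. All 13 were lower, but in blocks that differed by table. Mt-Co1 stood at 10530, 9386 and 10380 against 45470, 49920, 44690 and 46340 CPM (-2.21 ± 0.14), whereas mt-Atp8 stood at 2.74, 2.07 and 1.03 against 2696, 2840, 2455 and 2637 CPM (-10.46 ± 0.39) and mt-Nd6 at 2.06, 1.96 and 0.908 against 2497, 2279, 2756 and 2287 CPM (-10.60 ± 0.36). Across the list, 6 genes differed by -1.58 to -3.06 and the other 7 by up to -10.60, although all lie on 1 short genome. The cortex table also lists nuclear copies of these genes, and the part of counting in these values was not tested. Glomerular sample 1 held the most mt-Nd2, at 5609, 2350 and 2593 CPM.

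Transporters of organic ions, which clear drugs and urate, were lower in 14 of 14 cases (median -9.49). Slc22a6 (OAT1), the anion uptake carrier, which is counted here with the convoluted tubule, stood at 1.94, 2.48 and 1.68 against 1439, 1485, 1534 and 674 CPM (-9.32 ± 0.42), lowest in cortex library 4. Slc22a2 (OCT2), a cation uptake carrier, differed by -9.73 ± 0.18, and Slc47a1 (MATE1) and Abcc2 (MRP2), which export to urine, by -9.16 ± 0.19 and -10.42 ± 0.21. Slc22a12, the urate transporter, stood at 1.99, 3.96 and 3.53 against 2155, 2251, 2222 and 1567 CPM (-9.33 ± 0.33). Slco1a1, under androgen control in mice, varied widely in cortex, with 382, 536, 607 and 142 CPM against 0.449, 0.2501 and 0.216 CPM in glomeruli.

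Amino acid transporters were lower in 9 of 12 cases and higher in 2 (median -8.80). Slc3a1 stood at 1.04, 1.14 and 1.04 against 777, 744, 733 and 804 CPM (-9.48 ± 0.13) and its partner Slc7a9, the other subunit of the cystine carrier lost in cystinuria, at 0.2601, 0.273 and 0.329 against 148, 147, 135 and 125 CPM (-8.86 ± 0.15). Slc1a1, the glutamate carrier, and Slc6a13, a GABA and taurine carrier, differed by -8.73 ± 0.15 and -10.08 ± 0.24. The genes called higher were Slc6a6 and Slc7a5. Slc6a6, the taurine transporter, stood at 6867, 2941 and 6525 against 326, 320.3, 289 and 417 CPM (4.01 ± 0.30), and Slc7a5 (LAT1), which feeds growing cells with large amino acids, at 61.1, 50.3 and 62.9 against 2.73, 1.64, 2.15 and 5.06 CPM (4.32 ± 0.34). Slc36a2, the proline and glycine carrier, was not called, with 16.4 CPM in cortex library 3 and at most 0.302 CPM in each other sample of either tissue.

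Xenobiotic and peroxisomal enzymes were lower in 15 of 15 cases (median -8.89). Fmo2, a flavin monooxygenase, stood at 1.32, 0.819 and 0.999 against 495, 503, 467 and 511 CPM (-8.89 ± 0.18), Gsta2, a glutathione transferase, at 0.236, 0.432 and 0.363 against 176, 159.5, 147 and 126 CPM (-8.76 ± 0.22), and the D-amino acid oxidase Dao and Fmo1 differed by -9.06 ± 0.25 and -6.54 ± 0.19.

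Vitamin D and phosphate hormone genes were lower in 8 of 9 tested cases and higher in 1 (median -5.90). Kl, the klotho coreceptor of FGF23, stood at 6.38, 5.18 and 6.21 against 1033, 1104, 916 and 701 CPM (-7.30 ± 0.23), and Fgfr1, the receptor that klotho pairs with, was the gene that was higher, at 361, 328 and 326 against 64.4, 64.3, 63.3 and 65.7 CPM (2.39 ± 0.07). Slc34a3, the second renal phosphate carrier, differed by -8.87 ± 0.24 and Casr, the calcium sensor of the thick limb, by -6.64 ± 0.26. Vdr, the vitamin D receptor, stood at 41.6, 26.4 and 41.3 against 319.5, 349, 309.7 and 274 CPM (-3.10 ± 0.19). Cyp27b1, which activates vitamin D, ranged over 10.3, 4.81, 3.45 and 1.89 CPM in cortex, and Cyp24a1, which breaks it down, over 128, 160.4, 201 and 232 CPM, and both lay under 0.6 CPM in glomeruli.

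Basement membrane genes were higher in 13 of 18 cases and lower in 2 (median 2.52). Col4a1 and Col4a2, the collagen IV chains of all basement membranes, stood at 4011, 4528 and 3783 and 3198, 3297 and 2926 CPM against 229, 212, 238 and 246 and 185, 166, 180.3 and 197 CPM (4.15 ± 0.12 and 4.11 ± 0.11). The chains of the mature glomerular membrane, Col4a3, Col4a4 and Col4a5, which are mutated in Alport syndrome, differed by 2.46 ± 0.24, 2.09 ± 0.22 and 3.85 ± 0.23. Their values were lowest in glomerular sample 2, with Col4a3 at 1757, 1031 and 2391 against 298, 308, 328 and 318 CPM. Hspg2 (perlecan) and Lama5, the laminin chain of the glomerular membrane, differed by 3.77 ± 0.18 and 2.57 ± 0.12. Both laminin chains called lower belong to epithelia. Lama1, of the tubule membrane, stood at 0.591, 1.205 and 0.613 against 20.4, 26.9, 23.2 and 18.8 CPM (-4.82 ± 0.29), and Lama3 at 3.83, 7.299 and 4.201 against 39.6, 43.7, 49.1 and 30.2 CPM (-3.00 ± 0.27).

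Interstitial and fibrillar matrix genes included some of the largest differences in favour of glomeruli, with 10 of 15 higher and 4 lower (median 3.79, with 3.12 without glomerular sample 2 and 4.51 without cortex library 3). Fn1, fibronectin, took 2.15% of all scaled glomerular counts, at 18160, 27570 and 18890 against 58.7, 37.3, 48.1 and 63.2 CPM (8.70 ± 0.29, 416-fold). Sparc, a collagen-binding matricellular protein, stood at 12070, 10060 and 10960 against 126, 101, 135 and 132 CPM (6.48 ± 0.17), and Col1a1 and Fbn1 (fibrillin) differed by 5.76 ± 0.16 and 5.29 ± 0.12. Col1a2 stood at 4432, 3811 and 4332 against 70.4, 42.9, 68.3 and 80.9 CPM (6.00 ± 0.23), Col5a1 at 969.5, 1311 and 982 against 12.8, 8.85, 14.2 and 19.6 CPM (6.29 ± 0.29) and Tnc, tenascin C of remodelling tissue, at 976, 1357 and 1052 against 3.75, 4.75, 5.19 and 14.4 CPM (7.32 ± 0.52, and 7.95 without cortex library 4). The glomerular groups lay above every cortex library in all of these genes.

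The 4 genes called lower included proteoglycans of fibroblasts. Dcn, decorin, stood at 7.87, 6.94 and 11.01 against 38.2, 23.5, 34.96 and 45.8 CPM (-2.04 ± 0.25), Col6a1 at 2.86, 2.797 and 2.09 against 19.6, 14.6, 19.9 and 27 CPM (-2.98 ± 0.24), and Lum, lumican, at 0.0236, 0 and 0.0341 against 0.905, 0.325, 1.81 and 1.52 CPM (-5.57 ± 0.90, and -6.34 without glomerular sample 3+4). The fourth was Mgp, the calcification inhibitor matrix Gla protein. The Dcn difference was no longer called on the log2(FPKM + 1) scale.

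Of 20 ligand and receptor genes of glomerular cell crosstalk, 13 were higher and 3 lower, against 38.3% and 39.5% of all tested genes. Their median was 1.06. Among ligands, Pdgfb, which the endothelium sends to Pdgfrb, stood at 139, 166 and 125 against 26.98, 19.8, 24.5 and 25.7 CPM (2.56 ± 0.13), and Efnb2, an ephrin ligand, at 243, 228 and 245 against 12.7, 14.8, 18.95 and 12.7 CPM (4.01 ± 0.15). Edn1, the vasoconstrictor endothelin 1, stood at 21.6, 52.6 and 22.4 against 1.53, 0.771, 1.01 and 2.84 CPM (4.37 ± 0.50), highest in glomerular sample 2. Its receptors diverged: Ednra, on contractile cells, differed by 0.87 ± 0.25, and Ednrb, on endothelium and collecting duct, by -1.26 ± 0.23. Among receptors, Nrp1, a coreceptor of VEGF and semaphorins, stood at 586, 575 and 561 against 45.6, 40.4, 41.4 and 46.3 CPM (3.72 ± 0.09), and Npr3, the clearance receptor of natriuretic peptides, at 198, 126 and 266 against 18.01, 17.9, 17.2 and 9.43 CPM (3.65 ± 0.30). Angpt1, the stabilising ligand of Tek, was lower, at 7.16, 7.03 and 10.3 against 22.97, 17.5, 18.5 and 13.9 CPM (-1.15 ± 0.21). Its antagonist Angpt2 was not called (1.53 ± 0.72, adjusted p = 0.0821), with 19.6, 37.4 and 22.1 against 3.04, 2.8, 5.96 and 24.6 CPM, and without cortex library 4 differed by 2.74 (adjusted p = 3.85e-04).

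The series is about Nsd2, an H3K36 methyltransferase, and the Hippo pathway, in which the kinases Stk3, Stk4, Lats1 and Lats2 hold the coactivators Yap1 and Wwtr1 (TAZ) outside the nucleus. Nsd2 itself (chr5:33820725-33897975) was not called between the control tissues, at 23.4, 30.3 and 33.98 against 32.4, 36.99, 30.9 and 33.3 CPM (-0.19 ± 0.13, adjusted p = 0.212). The ranges overlapped. On the log2(FPKM + 1) scale the estimate was 0.10, also not called (adjusted p = 0.367). Of 11 genes that write or erase H3K36 methylation, 6 were higher and 0 lower, against 38.3% and 39.5% of all tested genes. Their median was 0.33, and -0.05 among genes of like implied length. Kdm4b, Smyd2, Kdm2b and Kdm4a were higher by 1.13 ± 0.10, 0.79 ± 0.09, 0.73 ± 0.09 and 0.62 ± 0.07. Nsd1, the closest relative of Nsd2, was not called (-0.33 ± 0.17), but was called lower without glomerular sample 3+4, at -0.49 (adjusted p = 0.0262).

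Hippo components were higher in 15 of 19 cases and lower in 2 (median 1.27). Yap1 stood at 298, 228 and 209.8 against 85.8, 86.4, 95.6 and 80.8 CPM (1.49 ± 0.13) and Wwtr1 at 270, 229 and 264 against 79.1, 79.1, 80.7 and 80.7 CPM (1.67 ± 0.08). Lats2 stood at 328, 238 and 265 against 51.8, 50.1, 51.5 and 58 CPM (2.39 ± 0.12, adjusted p = 2.40e-07), whereas Lats1 differed by 0.46 ± 0.14. All groups of these genes were apart, with Lats1 nearest to touching. Stk4 (MST1) and the kinase adaptor Mob1a differed by 1.27 ± 0.06 and 1.37 ± 0.08. Tead1, the main DNA-binding partner, stood at 265, 292 and 362 against 81.9, 79.3, 85.2 and 88.1 CPM (1.87 ± 0.11), and Tead2 at 45.1, 43.4 and 41.6 against 1.04, 1.83, 2.63 and 2.73 CPM (4.39 ± 0.29).

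The pair called lower were regulators of the kinases. Wwc1 (KIBRA), a scaffold of epithelial cells, stood at 33.5, 30.8 and 29.4 against 190, 191, 174 and 259 CPM (-2.70 ± 0.15), and Mob1b at 18.1, 20.01 and 25.01 against 92.1, 90.5, 82.6 and 92.4 CPM (-2.08 ± 0.12). The direction of Mob1b turned on the log2(FPKM + 1) scale (0.43, adjusted p = 0.00559).

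Genes known as targets of YAP and TAZ were higher in 15 of 16 cases and lower in 1 (median 3.73). Ccn2 (CTGF) stood at 7889, 6697 and 7059 against 158, 101, 121 and 159 CPM (5.74 ± 0.20, 53.5-fold) and Ccn1 (CYR61) at 1441, 1390 and 1361 against 31.6, 30.4, 25.2 and 34.5 CPM (5.52 ± 0.13). Ankrd1, a stretch-responsive cofactor, stood at 148, 304 and 171 against 1.24, 2.21, 1.28 and 3.44 CPM (6.66 ± 0.43), highest in glomerular sample 2. The receptor kinase Axl, the ligand Tgfb2 and the Hippo-linked Ajuba differed by 5.02 ± 0.21, 6.09 ± 0.20 and 2.71 ± 0.11. Igfbp3 was the gene that ran lower, at 125, 99.2 and 115 against 431, 294, 346 and 269.7 CPM (-1.57 ± 0.17). Smooth muscle genes and matrix genes differed in the same direction, and the part of any 1 pathway in these values was not tested.

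**Figure D3:**
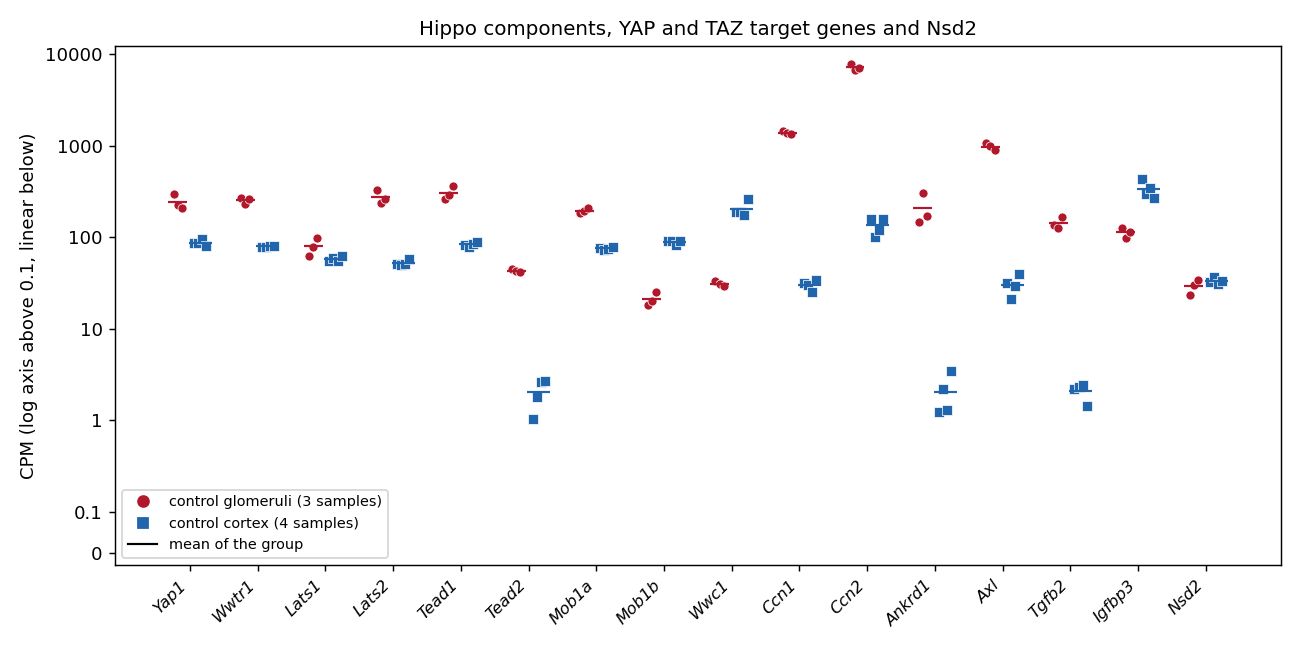
CPM (y axis, logarithmic above 0.1) of Hippo components, YAP and TAZ target genes and Nsd2 (x axis) in every sample, with glomeruli as red circles, cortex as blue squares and the group mean as a bar. Ccn2 lies at 6697 to 7889 CPM in glomeruli and 101 to 159 CPM in cortex, while the Nsd2 values of both tissues overlap.

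Immediate early and heat shock genes, which dissociation and warming of tissue are known to raise, were higher in 22 of 23 cases and lower in 1 (median 2.44). Fosb and Fos, subunits of the AP-1 factor, stood at 45.6, 54.8 and 39.1 and 119, 121 and 89.4 CPM against 0.509, 0.162, 0.257 and 0.186 and 4.58, 1.52, 0.674 and 2.34 CPM (7.38 ± 0.32 and 5.60 ± 0.52). Egr1, Jun and Fosl2 differed by 4.18 ± 0.36, 2.75 ± 0.28 and 3.91 ± 0.16, and the zinc finger gene Klf6 and Ier2 by 2.51 ± 0.15 and 2.33 ± 0.14. The heat shock gene Hspa1a stood at 179.8, 219 and 148 against 21.1, 32.5, 96.4 and 39.97 CPM (1.94 ± 0.45), with cortex library 3 the highest of its group (2.53 without it). Hsph1, another chaperone, was lower, at 68.4, 79.01 and 74.8 against 158, 207, 282 and 194 CPM (-1.50 ± 0.19). The labels give no isolation times, so the part of handling in these values was not tested.

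Inflammatory genes were higher in 11 of 15 cases and lower in 0 (median 4.56), and much of that size came from glomerular sample 2. Ccl2, which draws monocytes, stood at 14.5, 350.5 and 16.9 against 0.396, 0.325, 0.193 and 0.217 CPM (8.83 ± 1.41), and without sample 2 differed by 5.82 (adjusted p = 1.14e-06). Ccl7 stood at 5.56, 101 and 5.66 against 0, 0, 0.128 and 0 CPM (9.98 ± 1.61) and without sample 2 differed by 7.29 (adjusted p = 2.48e-04). Both other samples still lay above every cortex library. Cortex library 3 was the one cortex library with counts of Ccl7, and without that library it differed by 14.04 (adjusted p = 0.00694), a size set by the prior count and no bound. Cxcl1, a neutrophil attractant, and the cytokine Tnf lost their calls without sample 2, at 1.605 (adjusted p = 0.116) and 1.29 (adjusted p = 0.0987). The list then held 8 genes called higher and a median of 1.51. DESeq2 called 5 of the list higher with all samples. Genes to which DESeq2 gave no adjusted p count here as not called, so this number is no measure of genes without a difference.

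Other inflammatory genes were called with or without that sample. Ptgs2 (COX-2) stood at 124, 544 and 189 against 0.226, 0.162, 0.128 and 0.651 CPM (9.87 ± 0.73), and differed by 9.02 (adjusted p = 1.08e-06) without sample 2 and 10.696 (adjusted p = 1.82e-05) without cortex library 4. Csf1, the growth factor of macrophages, stood at 618, 1148 and 579 against 8.64, 7.57, 10.8 and 12.8 CPM (6.30 ± 0.32), and Tnfaip3, the A20 brake on NF-kB, at 109.5, 182 and 123 against 8.18, 7.02, 6.599 and 7.75 CPM (4.22 ± 0.19). The cytokine Lif differed by 4.64 ± 0.83, and by 3.84 (adjusted p = 0.00413) without sample 2.

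**Figure D4:**
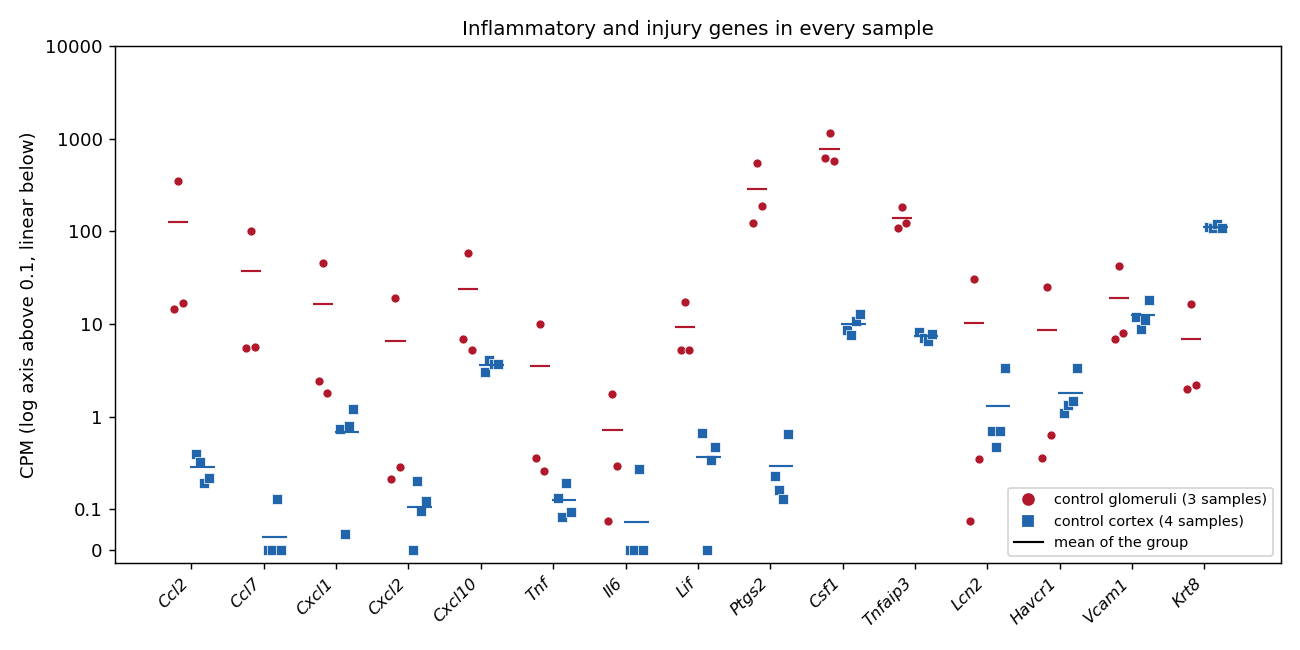
CPM (y axis, logarithmic above 0.1 and linear below) of inflammatory and injury genes (x axis) in every sample, with glomeruli as red circles in the order 1, 2, 3+4, cortex as blue squares and the group mean as a bar. Glomerular sample 2 is the highest of its group in all 15 genes, such as Ccl2 at 350.5 CPM against 14.5 and 16.9 CPM.

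Genes of tubular injury were higher in 5 of 10 cases and lower in 2, against 38.3% and 39.5% of all tested genes. Their median was 2.46, or 0.49 without glomerular sample 2. Timp1, an inhibitor of matrix proteases, stood at 123, 198 and 114 against 0.264, 0.223, 0.819 and 0.465 CPM (8.30 ± 0.39), and Cd44, the hyaluronan receptor, at 89.3, 184 and 93.6 against 2.55, 1.54, 2.44 and 1.92 CPM (5.85 ± 0.32). The developmental factors Sox4 and Sox9 differed by 3.99 ± 0.14 and 2.70 ± 0.35. Havcr1 (KIM-1) stood at 0.355, 24.8 and 0.636 against 1.09, 1.32, 1.46 and 3.38 CPM and Lcn2 (NGAL) at 0.0709, 30.6 and 0.352 against 0.698, 0.467, 0.706 and 3.35 CPM, both high in sample 2 alone among glomeruli and neither called (adjusted p = 0.126 and 0.11). Without that sample Havcr1 differed by -1.83 (adjusted p = 0.0242) and Lcn2 by -2.51 (adjusted p = 0.0632). Clu, clusterin, and Spp1, osteopontin, which healthy tubules also make, were lower (-2.65 ± 0.43 and -1.17 ± 0.44), by more without glomerular sample 2 (-3.39 and -2.03). The Spp1 call was lost without any 1 of cortex libraries 1, 2 and 4 or glomerular samples 1 and 3+4 (adjusted p 0.0551 to 0.118).

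Cell cycle genes were higher in 11 of 12 cases and lower in 1 (median 3.24). Cdk1 stood at 35.1, 25.7 and 31.4 against 1.13, 1.18, 1.69 and 1.41 CPM (4.50 ± 0.18), Ccnb1, the cyclin of mitosis, at 28.5, 21.9 and 25.6 against 0.4902, 0.832, 1.19 and 0.946 CPM (4.86 ± 0.27), and Mki67 at 20.8, 33.04 and 62.1 against 5.36, 5.96, 6.49 and 5.74 CPM (2.72 ± 0.32). Sample 3+4 held the most Mki67 and sample 1 the most Cdk1. Birc5 and the replication gene Mcm2 differed by 2.98 ± 0.15 and 1.98 ± 0.11. The cell cycle inhibitor Cdkn1a (p21) was higher too, at 474, 501 and 388 against 7.94, 9.13, 16.6 and 18.4 CPM (5.12 ± 0.32), and Ccnd1, the cyclin of early G1, was lower, at 56.4, 61.9 and 45.2 against 143, 139, 113 and 208 CPM (-1.47 ± 0.21).

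Markers of blood and immune cells differed by kind. Red blood cell genes were lower in 5 of 5 cases, with 34.1, 45.04 and 34.6 summed CPM in glomeruli and 785, 1418, 1113 and 1206 in cortex. The globin copies share reads, so single values are uncertain: Hbb-bs differed by -4.28 ± 0.27 and Hba-a1 by -4.81 ± 0.27. Of 7 lymphocyte genes tested, 4 were lower and 0 higher, against 39.5% and 38.3% of all tested genes. These lymphocyte genes all stood at under 3 CPM in every sample. Cd8a, of cytotoxic T cells, stood at 0.0946, 0 and 0.102 against 1.13, 2.23, 2.26 and 1.94 CPM (-4.71 ± 0.68), and 2 calls were left without cortex library 4, glomerular sample 1 or glomerular sample 3+4.

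Of 16 myeloid genes, 6 were higher and 6 lower, near the shares of all tested genes (38.3% and 39.5%). Lyz2, lysozyme of macrophages and neutrophils, stood at 270.2, 501 and 194 against 15.03, 10.2, 11.8 and 17.99 CPM (4.55 ± 0.35), and Itgam (CD11b) at 4.56, 12.9 and 3.71 against 0.377, 0.629, 0.6102 and 0.4497 CPM (3.77 ± 0.48). Sample 2 was the highest in both, and they still differed by 4.09 (adjusted p = 2.45e-06) and 3.01 (adjusted p = 6.53e-05) without it. The class II antigen presentation genes H2-Aa and H2-Ab1 and their chaperone Cd74 were lower, by differences of -5.54 ± 0.33, -3.23 ± 0.30 and -5.11 ± 0.33, and Cd74 stood at 4.07, 7.299 and 3.72 against 146, 139.5, 166 and 238 CPM. Csf1r, the receptor for Csf1, was lower as well, at 13.6, 23.1 and 10.1 against 60.1, 54.6, 57.4 and 107 CPM (-2.17 ± 0.35), highest in cortex library 4. The median of the list was 0.39, and -0.04 without glomerular sample 2.

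The 5 adipocyte genes summed to 2.27, 2.57 and 1.82 CPM in glomeruli against 0, 0.0812, 90.8 and 0 CPM in cortex. Retn, the hormone resistin, made up nearly all of the glomerular sum, at 2.22, 2.46 and 1.82 against 0, 0, 2.14 and 0 CPM. It alone passed the filter on low counts and was not called (1.99 ± 1.52, adjusted p = 0.255), but was called higher without cortex library 3, at 9.94 (adjusted p = 7.17e-05), with no count left in cortex. In cortex library 3, Adipoq, Cfd and Plin1, of fat cells, stood at 19.9, 46.5 and 22.2 CPM, against at most 0.0812 CPM in the rest of cortex, and in glomeruli they reached at most 0.114 CPM. Of 5 adrenal cortex genes, Star alone passed the filter on low counts, at 0.496, 0.932 and 0.613 against 4.37, 4.099, 4.4 and 5.49 CPM (-2.76 ± 0.29). Cyp11a1 and Cyp21a1, which define steroid-making adrenal cells, were at most 0.128 CPM in every sample.

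Sex-linked genes did not follow a single pattern. Xist, the RNA of the inactive X of females, stood at 10.8, 8.595 and 5.92 against 0.0754, 0.244, 0.209 and 0 CPM (6.01 ± 0.69), while the Y-linked Ddx3y, Eif2s3y and Uty were present in every sample and differed by 0.59 ± 0.15, -0.44 ± 0.16 and -0.59 ± 0.13. The Eif2s3y call was lost without glomerular sample 1 or 2 or cortex library 1 or 2 (adjusted p 0.0534 to 0.124). Ddx3y stood at 87.7, 63.98 and 96.9 against 49.3, 63.2, 49.95 and 58.6 CPM. The libraries of both groups thus held Y-linked RNA, and those of glomeruli held some Xist besides. The labels used here give no sex, and the part of pooling, mice of different sex or counting in these values was not tested.

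Per length, the nuclear genes of the glomerular libraries named here with the highest levels were Sparc at 4452 ± 285 FPKM, Tagln at 4359 ± 509.5, Igfbp7 at 4138 ± 730.2, Vim (vimentin) at 3525 ± 427, Acta2 at 3216 ± 234 and Ccn2 at 3202 ± 188. In cortex the highest nuclear genes were Kap at 18350 ± 2099 FPKM and Gpx3 (plasma glutathione peroxidase) at 8366 ± 1535. Nphs1 ranked far lower in glomeruli, at 45.5 ± 6.08 FPKM, beside Pdgfrb at 70.7 ± 12.3 and Kdr at 21.3 ± 3.96 FPKM. Among the genes given here per length, then, contractile and matrix genes such as Sparc, Tagln and Acta2 stood above Nphs1, Pdgfrb and Kdr.

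Among the 12 largest increases, secreted and matrix genes recurred. Lox, which cross-links collagen, stood at 3251, 1883 and 3423 against 2.79, 2.902, 3.805 and 7.92 CPM (9.35 ± 0.49), and Inhba, of the TGF-beta family ligand activin A, at 256, 576 and 465 against 0.151, 0.183, 0.514 and 0.357 CPM (10.43 ± 0.44). Itga11, a collagen receptor, stood at 239.9, 76.1 and 221 against 0, 0, 0 and 0.109 CPM (12.42 ± 0.72, and 16.300 without cortex library 4), lowest in glomerular sample 2, and Col11a1, a fibrillar collagen, at 13.05, 31.4 and 21.3 against 0, 0, 0.0642 and 0 CPM. Gdnf, the growth factor that directs ureteric budding in the embryo, had 18.4, 28.5 and 18.6 CPM in glomeruli and 0 counts in all 4 cortex libraries, which makes a difference of at least 1667-fold when the 4 libraries together are set to 3 counts.

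Pkp1, a desmosomal plaque gene, and the adaptor Dok6 were also among them (9.88 ± 0.51 and 9.55 ± 0.65), with 11.31 (adjusted p = 6.82e-07) without cortex library 4 and 13.67 (adjusted p = 3.81e-06) without cortex library 1. Where cortex held so few counts, the size of a fitted difference is set by single counts. Nupl1, a nuclear pore gene that cells in general use, was at 83.5, 61.2 and 64.6 CPM in glomeruli and is listed at 0 in every cortex library, and Pakap at 342, 385 and 415 against 0, 0.528, 0.321 and 0.341 CPM. Gaps of this kind cannot be told apart from a symbol that was counted under another name. In all, 1151 joined genes were at 0 in cortex, of which 45 reached 1 CPM in glomeruli, and 1069 were at 0 in glomeruli, of which 88 reached 1 CPM in cortex.

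Among the 12 largest decreases, transporters of the proximal tubule and genes of the alpha-1-antitrypsin family recurred. Slco4c1, the digoxin and thyroid hormone carrier, had 0 counts in glomeruli and 33.98, 29.6, 19.2 and 70.4 CPM in cortex, at least 2227-fold lower with glomeruli set to 3 counts in all. Aqp7, the glycerol channel of the straight proximal tubule, had 0 counts and 25.7, 27.4, 28.6 and 35.1 CPM, at least 1697-fold lower. Slc22a13, a nicotinate and urate carrier, stood at 0, 0 and 0.0227 against 86.4, 73.9, 86.9 and 176 CPM. The family's close copies Serpina1a, Serpina1c and Serpina1f share reads, so their values are uncertain, and Serpina1f stood at 0.0473, 0 and 0.0114 against 116, 106, 96.8 and 239 CPM. Apoa4, an apolipoprotein, Abca8a, a lipid transporter, Etnppl, of phosphoethanolamine breakdown, and Sec14l3, a lipid-binding gene, had 0 counts in all glomerular libraries and means of 15.4, 19.8, 16.6 and 15.9 CPM in cortex. Cortex library 4 was the highest for Slco4c1, Slc22a13, Serpina1f and Apoa4. Mettl7a2, a methyltransferase-like gene, and Hsd3b4, a steroid dehydrogenase with close copies, completed the group, with 115, 98.4, 76.2 and 259.5 and 164, 247, 183 and 258 CPM in cortex.

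Of 12 genes often used as references, 6 were higher and 2 lower, against 38.3% and 39.5% of all tested genes. Their median was 0.30, at 0.28 to 0.48 under the other count scalings and 1.19 on the log2(FPKM + 1) scale. Eef1a1, a translation factor, was not called, at 4708, 4670 and 4342 against 3970, 4232, 4077 and 3987 CPM (0.17 ± 0.10, adjusted p = 0.156), though it passed with library totals (0.35). Actb, cytoskeletal actin, stood at 4471, 4133 and 3994 against 383, 344, 378 and 380.1 CPM (3.50 ± 0.11), and B2m and Rplp0 differed by 1.09 ± 0.11 and 0.73 ± 0.09. Tbp, of the basal transcription machinery, differed by -0.72 ± 0.11 in the counts but by 2.05 on the log2(FPKM + 1) scale. Gapdh, whose many processed copies can take its reads, stood at 100.3, 135 and 105 against 47.2, 48.2, 109.8 and 47.3 CPM, with cortex library 3 high. Its call (adjusted p = 0.0337) was lost without any 1 glomerular sample or cortex library 1, 2 or 4 (adjusted p up to 0.101), and without cortex library 3 it differed by 1.24 (adjusted p = 6.77e-05).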

How the data were processed

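The deposited glomerular values are raw counts per gene symbol, and the deposited cortex values are expected counts per Ensembl gene that the authors made whole, as far as the values show. The deposited FPKM tables hold values per length and library size, made by the authors. Builds GRCm38 and mm10 are named in the submitters' processing notes. The aligner, the counter, the annotation and the strand setting: not given in the sources used here. RNA (1.3 µg, RNeasy Plus Mini kit) went into SMARTER mRNA-Seq libraries, per the labels' protocols.

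Glomerular symbols were matched to cortex identifiers directly (19796), by synonym (297) or by mitochondrial name (13), and 4616 were not matched. The 19061 joined genes held 99.4% of glomerular and 94.4% to 94.8% of cortex counts. Gene coordinates and promoters are GRCm38 (RefSeq promoters, GRCm38.p6).

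edgeR 4.0.16 in R 4.3.3 (filterByExpr, TMM, quasi-likelihood test, Benjamini-Hochberg adjustment over 15692 genes, threshold 0.05) was the test. It was checked on counts simulated from cortex, with few genes changed and by smaller folds than many here. That check does not cover a comparison in which most genes differ. Alternatives used DESeq2 1.42.0 and limma 3.58.1, the latter on log2(FPKM + 1) and log2(FPKM + 0.1). The genes named were, in each direction, the 12 furthest apart of those called with non-overlapping groups and an average log2 CPM of 3 or more, up to 4 genes of each list by adjusted p, up to 2 called against their list, and 13 genes picked by name. Other list members were named after their values were seen. Some genes that these rules pick are not reported here. Genes, lists and members were chosen with earlier results of these data known. Close gene copies, and antisense or overlapping genes, may share reads.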

Additional observations from a re-analysis of the deposited data

Results flagged for a closer look

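A sample was set apart where its gap to the nearest of the other 3 cortex libraries took up more of the group's range than Dixon's 95% critical value for 4 samples allows. Of 263 groups examined, 32 were set apart. Chance sets apart about 1 in 20 such groups, so some of those below are of the kind chance gives. The glomerular groups, with 3 samples, were not examined in this way. Cortex library 3 held the fat cell genes Adipoq at 19.9 CPM, Cfd at 46.5 CPM and Plin1 at 22.2 CPM, and the adipocyte list summed to 90.8 CPM against at most 0.0812 CPM in the rest of the group. In the same library Fabp4 stood at 113.5 CPM against 22.6 to 32.2, Slc36a2 at 16.4 CPM against at most 0.302, Hadha at 138 CPM, Gapdh at 109.8 CPM, Akr1b7 at 3.13 CPM, Ptn at 3.69 CPM and Lmx1b at 2.75 CPM.

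Cortex library 4 was low for several transporter genes. Slc34a1 stood there at 3823 CPM against 6815 to 7106, Slc22a6 at 674 CPM against 1439 to 1534 and Slc22a12 at 1567 CPM against 2155 to 2251. Hsd11b2 (129.8 CPM) and Npr3 (9.43 CPM) were low as well. The library was high for Slc5a1 at 122 CPM, Slc6a13 at 145.5 CPM, Slc22a13 at 176 CPM, Serpina1f at 239 CPM, Apoa4 at 23.9 CPM and Cyp4a10 at 561 CPM. Also high there were Angpt2 at 24.6 CPM, Ednra at 4.53 CPM, Tnc at 14.4 CPM, Csf1r at 107 CPM and Foxc1 at 19.0 CPM. Its injury genes Havcr1 and Lcn2 stood at 3.38 and 3.35 CPM, and its Hippo components summed to 1270 CPM against 1153 to 1169.

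Cortex library 2 held Actb at 343.5 CPM against 378.5 to 383.4. Smyd2 was lowest in cortex library 1, at 15.4 CPM against 16.9 to 17.2.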

How the results depend on the processing

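Among 247 gene results, 220 kept their direction and side of the threshold under every alternative fit that tested the gene. Lists were less steady. Of 36 list medians, 1 stayed within the spread of its samples under every alternative. Of 76 counts of list members called, 24 stayed within 1.5 times under every alternative, which include the fit on fewer genes. Counts of called genes over all tested genes stayed within 1.5 times, with 1 exception. Where genes of unlike implied length were left out (4951 genes tested), 1847 higher and 1875 lower were called. Leaving out 1 cortex library, 1 glomerular library or glomerular libraries 3 and 4 gave 5697 to 6024 higher and 5880 to 6214 lower. On the log2(FPKM + 1) and log2(FPKM + 0.1) scales, respectively, directions turned for Agtr1a (0.26 and 0.27), Fabp4 (0.38 and 0.45), Lpl (0.26 and 0.26), Mob1b (0.43 and 0.50), Nsd2 (0.10 and 0.15), Tbp (2.05 and 2.46) and the median of the sex-linked genes (0.58 and 1.02), and the cause was not tested. The median of the H3K36 enzymes was -0.05 among genes of like implied length. Leaving out single libraries, Havcr1 ranged from -1.83 to 2.81, Lcn2 from -2.51 to 4.04 and Hadha from -0.010 to 1.197, each lowest without glomerular replicate 2. With replicate numbers as a block, over 8 separate libraries, 5887 genes were higher and 6073 lower, Havcr1 stood at -0.62 and Lcn2 at -0.96. Same-numbered glomerular and cortex libraries did not deviate together (r of -0.082 to 0.027). With few libraries and 2 unlike tissues, this cannot show whether the numbers pair libraries of an animal, and the labels do not say. Depth limits most the sizes of genes with few counts in 1 tissue, such as Ccl7, Itga11 and Dok6 in cortex.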
